A study of Mus musculus with 2 samples.

Results

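Expression of 33 lysosomal genes was compared between a heated and a control sample of mouse blood on 1-colour Agilent arrays. The genes encode 11 proteases (cathepsins, legumain and tripeptidyl peptidase), 8 glycosidases, 6 proteins of lipid handling, 4 membrane proteins, 3 subunits of the proton pump and the transcription factor Tfeb. They were chosen by name, as the probes outside the controls whose gene name in the array files equals one of these symbols, which gave 68 of 56605 probes and 33 of 37074 gene names.

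The heated sample was kept in a water bath at 37 °C for 1 h and then at 38.5 °C for 1 h, and the study asked which genes this treatment affects. For the control sample the labels state neither temperature nor duration. They give no strain, age or sex, and do not say whether animals or drawn blood were heated. Heat, pretreatment and handling therefore cannot be told apart. The labels' protocols mention 3 replicates per line, but 1 array per group was analysed here, and whether RNA was pooled for it is not stated. The number of arrays limits the precision: the differences have no replicate check and no p-value.

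The lysosome is the acidic compartment in which proteins, glycans and lipids delivered by endocytosis, phagocytosis and autophagy are broken down. Its enzymes work at low pH, which a vacuolar proton pump (V-ATPase) maintains, and its membrane carries heavily glycosylated proteins, ion channels and cholesterol carriers. Macrophages and monocytes are rich in lysosomes. Tfeb and its relatives of the MiT/TFE family activate many lysosomal genes through an E-box called the CLEAR element, and the kinase complex mTORC1 holds Tfeb in the cytoplasm when nutrients are plentiful.

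The promoters show what many of these genes share beyond their names. RefSeq promoter sequences of build GRCm38.p6, from 250 bases before to 50 bases after an annotated start, were matched by symbol for 28 of the 33 genes. The E-box CACGTG, which like the longer form reads the same on both strands, stood in the promoters of 14 of these 28 genes (50%), against 8.09% of the 27025 genes in the table. The longer form TCACGTGA, which contains the former, stood in 7 of 28 (25%) against 1.12% of all genes. Of 88 further lysosomal genes with a promoter in the table, from the lists described at the end, 18 (20.5%) held the former and 8 (9.09%) the latter. A 10-base form, with G before and C after the longer form, was also searched for. It stood in 1 of the 28 genes (3.57%) and in 2 of the 88 further genes (2.27%), against 0.37% of all genes. A match describes letters in a window, not a binding site. Of the 21 copies of CACGTG in the 14 genes 19 lay before the annotated start, with their centres at most 233 bases from it, 1 (Atp6v0d1) lay across it and 1 (Ctsa) after it. The 9 copies of the longer form are printed below because they are the sequence feature that links the pump subunits Atp6v0d1 and Atp6v1a, the membrane proteins Cln3 and Mcoln1, the proteases Ctsa and Ctsd and the glycosidase Gla. Each is a stretch of 30 bases, 5′ to 3′ on the strand of the gene, with TCACGTGA in capitals.
Atp6v0d1, chr8:105566050-105566079, minus strand: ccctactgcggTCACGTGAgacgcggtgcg
Atp6v1a, chr16:44139373-44139402, minus strand: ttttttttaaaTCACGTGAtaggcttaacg
Cln3, chr7:126583340-126583369, minus strand: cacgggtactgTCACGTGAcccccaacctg
Mcoln1, chr8:3500462-3500491, plus strand: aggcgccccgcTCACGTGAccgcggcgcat
Ctsa, chr2:164833749-164833778, plus strand: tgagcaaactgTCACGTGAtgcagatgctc
Ctsa, chr2:164833766-164833795, plus strand: gatgcagatgcTCACGTGAccagagctaca
Ctsd, chr7:142387908-142387937, minus strand: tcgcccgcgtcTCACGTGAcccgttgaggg
Gla, chrX:134601182-134601211, minus strand: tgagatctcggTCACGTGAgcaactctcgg
Gla, chrX:134601215-134601244, minus strand: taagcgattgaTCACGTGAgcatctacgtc

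Lamp1 held 4 copies of the shorter E-box within the 67 bases before its start and none of the longer form, so this stretch is shown with CACGTG in capitals.
Lamp1, chr8:13159094-13159160, plus strand: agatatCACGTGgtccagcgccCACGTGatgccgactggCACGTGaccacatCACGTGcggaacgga

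The other genes with CACGTG were Ctsf, Ctsl, Lgmn, Gaa, Glb1 and Naglu, each with 1 copy. The expression differences of the 14 genes with this E-box ran from -0.27 to 0.32 with a median of 0.08, and those of the 14 matched genes without it from -0.42 to 0.18 with a median of 0.06. The ranges overlap over most of their length.

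The arrays share a slide and a scan, so neither separates the groups. The signal of a probe is the processed intensity of the scanner software, and a difference is heat minus control on the log2 scale after each array was scaled to its 75th percentile (604 for heat, 620 for control). A probe was used where it was well above background on both arrays. Among markers of blood cells, all 12 of monocytes and macrophages were detected on both arrays, such as Csf1r, Adgre1 and Lyz2. For other cells 7 of 10 neutrophil markers were (not Ly6g, Cxcr2 and Retnlg), 7 of 9 of T cells (not Cd3g and Cd8a) and 2 of 8 of NK cells (not Ncr1, Klrd1, Nkg7, Gzma, Gzmb and Eomes). Among B cell markers Cd79b, Cd22 and Cr2 were detected, and Cd79a, Ms4a1, Pax5 and Blk were not well above background. Of 9 erythroid markers Hba-a1 and Hba-a2 were detected, and of 8 platelet markers Pf4 and Treml1. For scale, 18562 of all 37074 gene names were measured on both arrays. Detected markers differed widely in signal. With heat the T cell markers Cd3d, Cd3e and Il7r had 59.4, 158 and 21059. The neutrophil markers S100a8, S100a9 and Csf3r had 1762, 4137 and 51463, and Lyz2 had 161189. Detection alone therefore does not show how much of a cell type was present. The summed signal of the 12 monocyte and macrophage markers was 836545 with heat and 842644 in the control sample, a log2 ratio of 0.03 after scaling. Within that list Ccr2, a chemokine receptor of inflammatory monocytes, had 113 and 69.9 and a difference of 0.73. Log2 ratios of the same kind were 0.03 for neutrophils, 0.02 for T cells, -0.45 for NK cells, -0.0045 for erythroid cells and 0.26 for platelets. Such sums weigh bright genes most and say little of the others in a list. With heat, Csf3r gave 51463 of 59931 for neutrophils, Il7r 21059 of 26690 for T cells and Pf4 11483 of 12397 for platelets. The NK sums were 229 with heat and 322 in the control. Prf1, the perforin of NK and cytotoxic T cells, had 46.0 and 152, a difference of -1.68 at its only probe (-0.93 with normexp and quantile normalization), and was the only marker 2-fold apart. The part of these cells in the lysosomal differences was not tested. In such bulk samples, fewer cells of a type and less RNA per cell cannot be told apart.

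All 33 lysosomal genes were measured on both arrays, and none was 2-fold or even 1.5-fold apart. Of 18562 measured genes, 123 (0.663%) were at least 2-fold apart, 0.21% higher and 0.453% lower with heat. At least 1.5-fold apart were 553 (2.98%), 1.21% higher and 1.77% lower. Among the 9191 genes at or above the median signal of detected probes, 0.163% were 2-fold and 0.816% 1.5-fold apart. The lysosomal differences ran from -0.42 for Ctss to 0.32 for Cln3. Of the 33 genes 22 lay above 0 and 11 below, with a median of 0.06, where 52.2% of all measured genes lay above 0 and 47.8% below, with a median of 0.01. Across the 8 ways of scaling that were compared, 20 to 25 of the 33 lay above 0, and the share of all genes above 0 ran from 48.7% to 64.7%; the highest values of both came with mean signal minus local background. Of the 33, 28 lay within 0.2 of 0 (84.8%), against 74.7% of all measured genes and 87.2% of those 9191 genes.

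**Figure D1:**
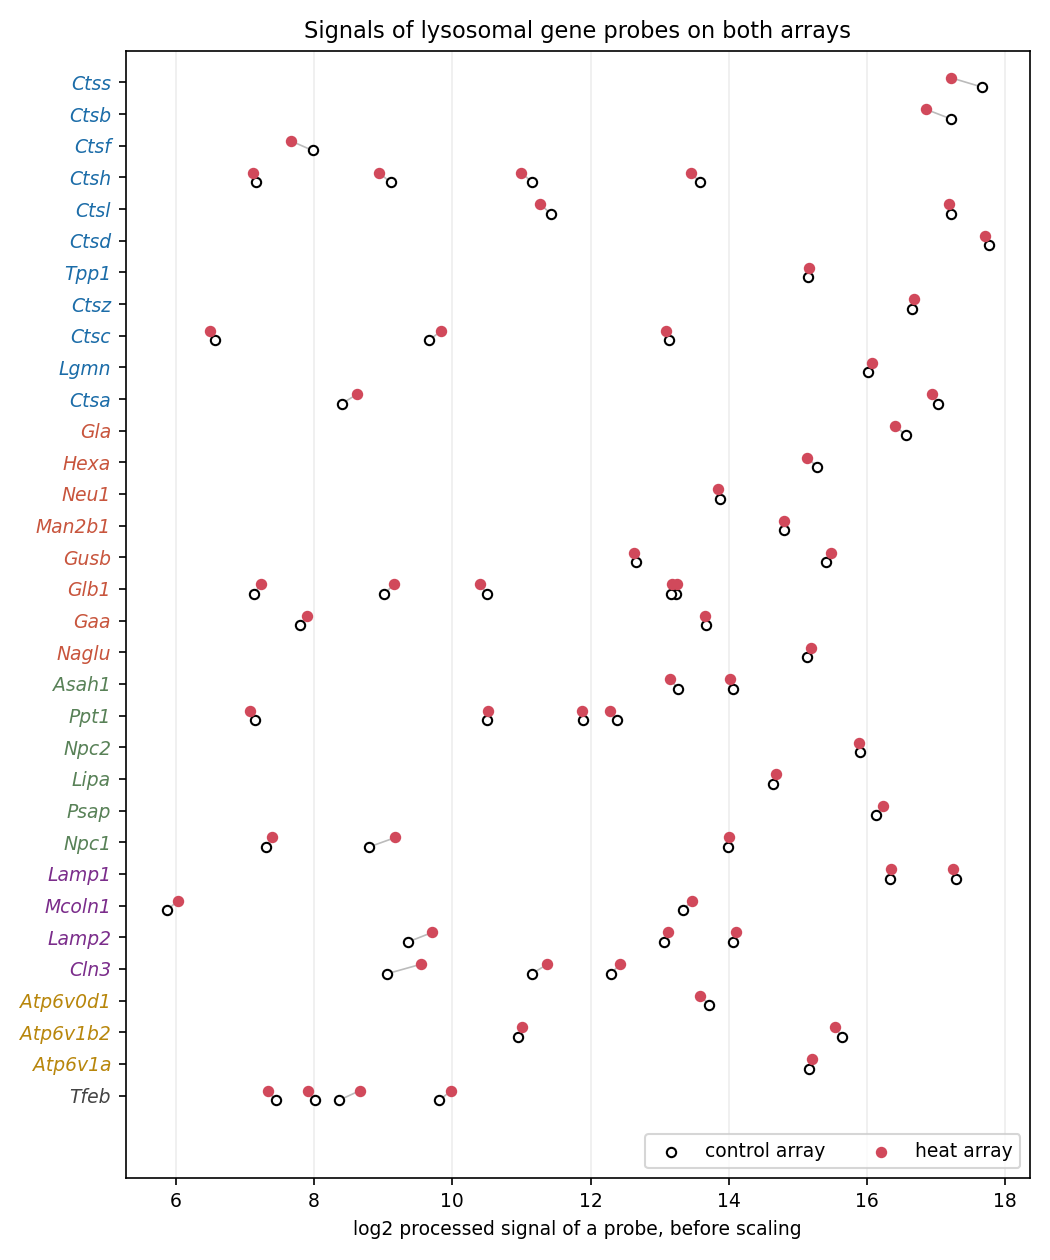
Log2 processed signal (before scaling) of each of the 62 usable probes of the 33 lysosomal genes on the control array (open circles) and the heat array (filled circles), with a grey line joining the pair; gene names are coloured by role, from proteases at the top to Tfeb at the bottom. Pairs lie close together for nearly every probe, the control circle is to the right for Ctss, Ctsb and Ctsf, and the heat circle is to the right for all 3 probes of Cln3; positions of different probes cannot be ranked against each other.

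**Figure D2:**
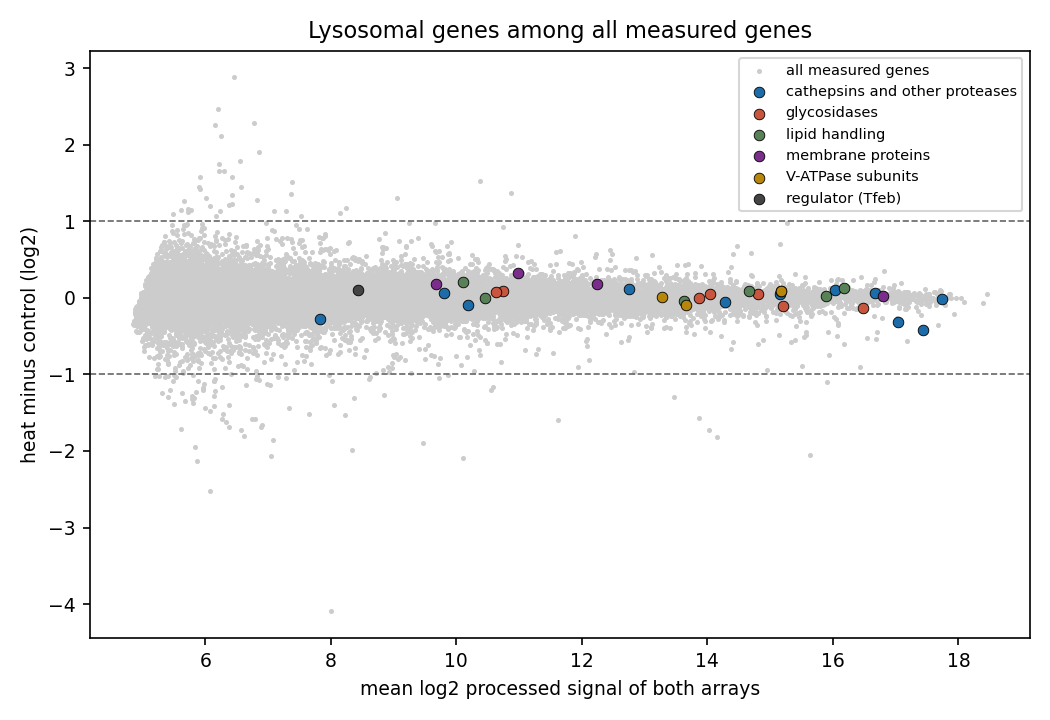
Heat minus control (log2) against mean log2 signal for 18562 measured genes (grey) and the 33 lysosomal genes (coloured by role), with dashed lines at a 2-fold difference. The lysosomal genes lie between -0.42 and 0.32, inside the dashed lines, while 123 grey points lie on or outside them.

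Kinds of technical error can be set beside these differences. The scanner software gives each signal an error estimate, which on the log2 difference of a probe had a median of 0.20 over the 62 usable probes. The 283 probes well above background that were printed at 10 spots showed a smaller spread, an SD of 0.08 for the difference of a single spot around its probe's mean. Neither covers the spread between animals or RNA preparations. Of the 33 genes 14 differed by less than this spot SD and 7 by more than their own software error. Of these 7, Ctss and Cln3 differed by more than 2 times that error. The shares of all measured genes past these bounds were not computed, so the counts cannot be read as particular to the 33. The median absolute difference was 0.09 for the 33 genes, 0.10 for all measured genes and 0.08 for the 9191 brighter ones. The software error of a gene's mean takes its probes as independent. For Cln3 it was 0.12 over 3 probes, while its brightest probe alone gave 0.16 with an error of 0.20. At bright probes printed at 1 spot the error stayed near 0.20 whatever the gene.

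The proteases spanned the widest range, and the lowest differences among the 33 genes were those of 3 cysteine cathepsins. Ctss, which cleaves the invariant chain of MHC class II in antigen-presenting cells, had a signal of 151590 with heat and 208273 in the control. That is a difference of -0.42 with a software error of 0.20, or 1.34-fold higher in the control sample. Ctsb, a cathepsin that acts as endopeptidase and carboxypeptidase, had signals of 118384 and 151522 (heat and control) and a difference of -0.32 ± 0.20 (software error). Ctsf, another cysteine cathepsin, was dimmer, with 203 and 252 and a difference of -0.27 ± 0.21 (software error). In each of these 3 genes the heat signal was the lower, and across the 8 scalings the difference stayed below 0, between -0.49 and -0.40 for Ctss, -0.32 and -0.26 for Ctsb, and -0.31 and -0.20 for Ctsf.

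Each of the 3 rests on a single probe, so no second probe bears on the value. On mm9, the build of the probe annotation, the Ctss probe lies at chr3:95360162-95360221, that of Ctsb at chr14:63761826-63761885 and that of Ctsf at chr19:4860454-4860513; each is annotated to the RefSeq mRNA of its gene. No annotation of that build was used here, so the position within the transcript is not given. Ctss and Ctsb were among 441 genes with a mean log2 signal of at least 16, a bound chosen after the values were seen. The median absolute difference of these genes was 0.04, and 12 of them (2.72%) were lower in the heated sample by 0.3 or more, while 0.227% were higher by as much. Ctss and Ctsb were 2 of the 12, and 8 of the 441 genes had a difference as low as that of Ctss or lower.

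The other cathepsins lay nearer 0. Ctsl, a cysteine endopeptidase, was printed at 10 spots, and 1 spot was left out on each array as an outlier. The remaining 9 spots ran from 140012 to 156760 with a median of 148102 with heat, and from 149297 to 159369 with a median of 151063 in the control. The spot values overlap between the arrays, and the probe differed by 0.01 with a software error of 0.07. A second Ctsl probe, on a cDNA record, had 2478 and 2748 and a difference of -0.11, so the gene's mean was -0.05.

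Ctsh, an aminopeptidase, had 4 usable probes, of which 3 on its RefSeq mRNA gave -0.13, -0.09 and -0.13 and the fourth 0.01, with a mean of -0.09 ± 0.07 (SD over 4 probes). Ctsd, the main aspartic protease of the lysosome, had signals of 213631 and 221969 and a difference of -0.02, a sign that turned with some scalings. Ctsz, a carboxypeptidase, had 104668 and 103098 and a difference of 0.06, whose sign also turned. Ctsc, the dipeptidyl peptidase that activates serine proteases of granules, differed by 0.06 on average over 3 probes, from -0.04 to 0.22. These cathepsins show no common direction, and each differs by less than its software error.

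The remaining proteases lay slightly above 0. Lgmn, the asparaginyl endopeptidase that processes cathepsins, had 68842 and 65968 and a difference of 0.10. Tpp1, a serine protease that removes tripeptides, had 36699 and 36257 and a difference of 0.06. Ctsa, the carboxypeptidase that protects beta-galactosidase and sialidase, had a bright probe with 126387 and 133464 at -0.04 and a dim probe with 394 and 338 at 0.26, so its mean of 0.11 came from the dim probe alone. As a group the 11 proteases had 5 genes above 0 and 6 below and a median of -0.02. The median lay between -0.02 and 0.04 across the scalings, so it has no settled sign.

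**Figure D3:**
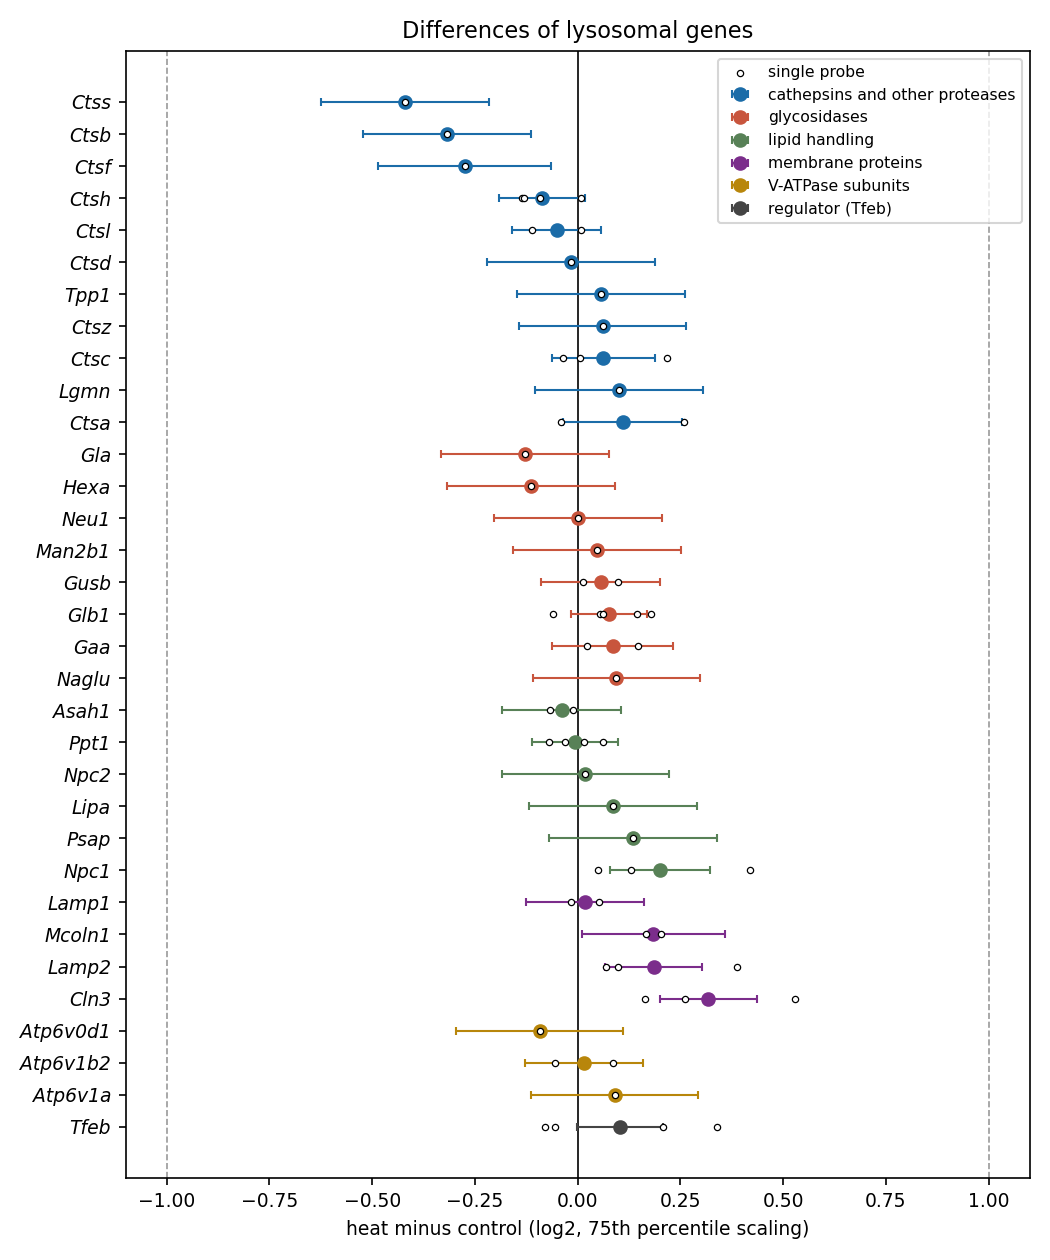
Heat minus control (log2) for the 33 lysosomal genes, ordered within each role, with the mean over usable probes (filled circles), the scanner software's error of that mean (bars) and single probes (small open circles); dashed lines mark 2-fold. Ctss, Ctsb and Ctsf lie furthest to the left and Cln3 furthest to the right, and for most genes the bar crosses 0.

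The glycosidases, which remove sugars from glycoproteins, glycolipids and glycogen, had gene means within 0.13 of 0. Across the 8 scalings these means ran from -0.13 to 0.17. Gla, alpha-galactosidase A, had 86671 and 97305 and a difference of -0.13, and Hexa, the alpha subunit of beta-hexosaminidase, had 35892 and 39866 and a difference of -0.11. Both have a single probe and a software error of 0.20. Neu1, the lysosomal sialidase, had 14683 and 15068, which after scaling is a difference of 0.00. These values do not separate the arrays beyond the software error.

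Man2b1, the alpha-mannosidase, had 28584 and 28414 and a difference of 0.05. Naglu, which acts on heparan sulfate, had 37472 and 36056 and a difference of 0.09. Gusb, beta-glucuronidase, was measured by 2 probes at 0.01 and 0.10, and Gaa, the enzyme that degrades lysosomal glycogen, by 2 probes at 0.02 and 0.15. Glb1, beta-galactosidase, had 5 usable probes from -0.06 to 0.18 and a mean of 0.08 ± 0.09 (SD over 5 probes). Its 2 brightest probes overlap in part. They had 9748 and 9641 for the first and 9287 and 9140 for the second and gave 0.05 and 0.06. Of the 8 glycosidases 6 lay above 0, the median was 0.05, and each difference was smaller than the gene's software error.

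Genes of lipid handling also stayed near 0, with 4 of 6 above it and a median of 0.05. Npc1, the membrane protein that exports cholesterol from the lysosome, had the largest mean difference of these, 0.20 ± 0.19 (SD over 3 probes). Its brightest probe had 16346 and 16214 and gave 0.05, and the value of the mean came from 2 dimmer probes on Ensembl transcripts at 0.13 and 0.42. Npc2, the soluble partner that hands cholesterol to Npc1, had 60352 and 61186 and a difference of 0.02, which became -0.12 with normexp background correction. Psap, the precursor of the saposins that present sphingolipids to their enzymes, had 76626 and 71731 and a difference of 0.13.

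Lipa, the acid lipase for cholesteryl esters and triglycerides, had 26353 and 25497 and a difference of 0.09. Asah1, acid ceramidase, gave -0.07 and -0.01 at its 2 probes. Ppt1, which removes palmitate from proteins, was measured by 4 probes from -0.07 to 0.06 with a mean of -0.01 ± 0.06 (SD over 4 probes). The probes of Ppt1 lie on both sides of 0, and those of Asah1 both lie below it.

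The 4 membrane proteins lay above 0 in each of the 8 scalings, with a median of 0.18 that ran from 0.14 to 0.20. With only the brightest probe of each gene the median was 0.12 and Lamp1 lay below 0, at -0.02. Cln3, a lysosomal membrane protein mutated in juvenile Batten disease, had the highest difference of the 33 genes, 0.32 ± 0.19 (SD over 3 probes). Its probes had 5498 and 5039, 2659 and 2280, and 750 and 534 (heat and control), with differences of 0.16, 0.26 and 0.53. The heat signal was the higher at each of them, and the difference was larger the dimmer the probe. The brightest lies at chr7:133715736-133715795 on mm9 and the one at 0.53 at chr7:133722384-133722443, on an Ensembl transcript.

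Lamp2, a heavily glycosylated protein that also serves chaperone-mediated autophagy, showed a similar order. The probe on its RefSeq mRNA had 17528 and 17161 and gave 0.07, the probe on an alternative RefSeq mRNA had 8936 and 8581 and gave 0.10, and a dim probe on an Ensembl transcript had 836 and 656 and gave 0.39. The probes on the RefSeq records differed from each other by less than the error of either, and whether each reads a single mRNA variant was not tested. Mcoln1, the calcium-permeable channel TRPML1, had 11282 and 10331 at its bright probe and gave 0.17, with 0.20 at a dim probe. Lamp1, the other main glycoprotein of the membrane, had 82987 and 82247 at 1 probe and 154780 and 160770 at the other and gave 0.05 and -0.02.

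The 3 pump subunits had no common direction. Atp6v1a, the catalytic subunit, had 37822 and 36506 at its usable probe and a difference of 0.09. Atp6v1b2, a further subunit of the cytoplasmic sector, gave 0.09 and -0.06 at its 2 probes. Atp6v0d1, of the membrane sector, had 12320 and 13493 and a difference of -0.09, which turned above 0 with some scalings. Their median was 0.02.

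Tfeb, the regulator, was measured by 4 probes that disagreed in sign. The brightest had 1010 and 899 and gave 0.21, the next had 404 and 328 and gave 0.34, and those with 241 and 257 and with 161 and 174 gave -0.05 and -0.08. The mean of 0.10 ± 0.20 (SD over 4 probes) is smaller than the spread between its probes. The 4 probes lie at different positions on chromosome 17. Those at 0.21 and -0.08 are annotated to the same RefSeq mRNA and the others to a record each, and the range over them, 0.42, was the widest of the 16 genes with several usable probes.

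Probes of the same gene differed in size and often in sign. Of the 16 genes with several usable probes, 9 had probes on both sides of 0, and the median range was 0.14. Probes annotated to a RefSeq mRNA (46) had a median difference of 0.02, with 28 above 0. Those annotated to another record, such as an Ensembl transcript or a cDNA clone (16), had a median of 0.14, with 12 above 0. The Tfeb probe at 0.34, on a predicted RefSeq mRNA, was counted with these other records. In the 12 genes with both kinds, the other record lay above the RefSeq mRNA in 8 and was the dimmer in 11. The median of other record minus RefSeq mRNA over all 12 genes was 0.11. Over all 2966 genes with both kinds the other record lay above in 54.1%, and the median over all of them was 0.02. With quantile normalization these medians were 0.07 for the 12 genes and 0.01 for all 2966. This comparison was chosen after the values were seen, and the part that low signal plays in it was not tested.

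**Figure D4:**
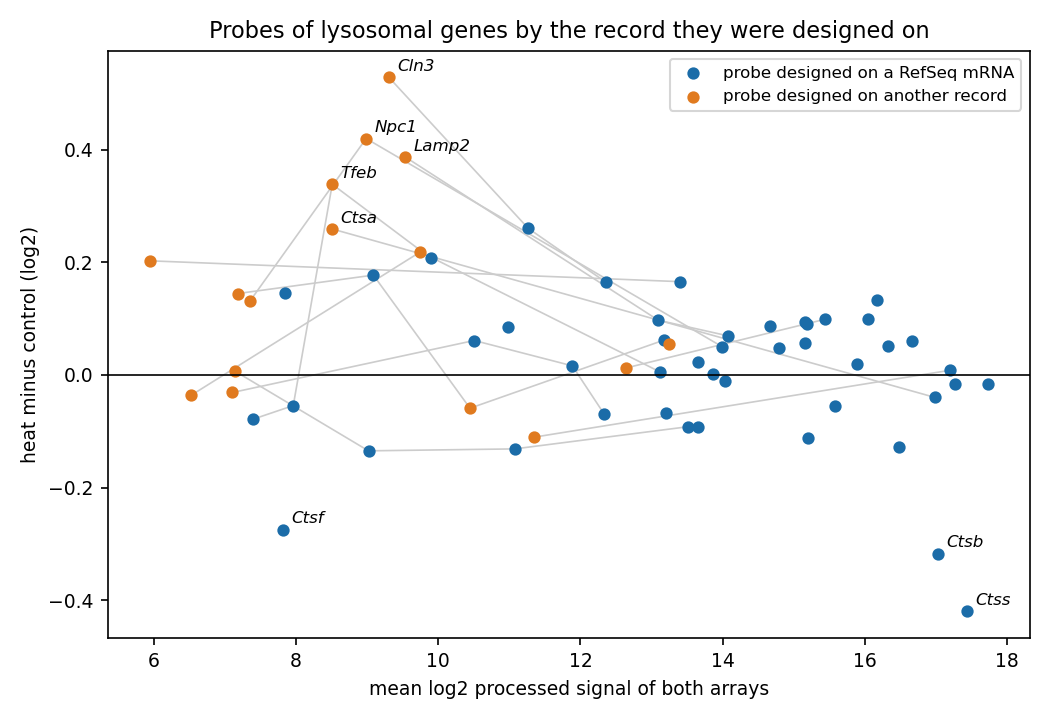
Heat minus control (log2) against mean log2 signal for the 62 usable probes of lysosomal genes, coloured by whether the probe is annotated to a RefSeq mRNA (46 probes) or another record (16 probes), with grey lines joining probes of a gene that has both kinds. The highest values are dim probes on other records (Cln3, Npc1, Lamp2 and Tfeb), and the lowest, Ctss and Ctsb, are bright probes on RefSeq mRNAs. The Tfeb record is a predicted RefSeq mRNA, which is counted here as another record.

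Further genes of the lysosome, came from lists drawn up from textbook knowledge, and their differences ran from -0.61 to 0.81. Of 116 such genes 9 were not well above background on both arrays. None of the others was 2-fold apart, 2 were at least 1.5-fold apart, and 68 lay above 0 and 39 below, with a median of 0.03. Of all measured genes, 0.663% were 2-fold and 2.98% at least 1.5-fold apart, and 52.2% lay above 0. Among 28 other hydrolases measured (16 above 0, median 0.03), Acp5, the tartrate-resistant acid phosphatase, had 59209 and 92767 and a difference of -0.61, and Ctsk, the collagen-degrading cathepsin K, had 24674 and 32409 and a difference of -0.35. Gm2a, the activator of ganglioside degradation, had -0.30 and Idua, alpha-L-iduronidase, 0.30. Each of these rests on 1 usable probe.

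Acp5 and Ctsk are also markers of osteoclasts, the bone-resorbing cells of the macrophage lineage. All 8 genes of that marker list were detected and lay below 0, with a median of -0.51, and they did so in each of the 8 scalings. Of all measured genes 47.8% lay below 0. Earlier results of these data were known when the list was written, and all 8 genes are named because of their values. Dcstamp, which mediates cell fusion, had -0.72, Calcr, the calcitonin receptor, -0.64, Oscar -0.58 and Ocstamp -0.43. Mmp9 had -0.22 and Atp6v0d2, the pump subunit found in osteoclasts, -0.09. The summed signal of the list was 107323 with heat and 155139 in the control. Most of it came from Acp5, with 59209 and 92767, and Ctsk, with 24674 and 32409. The part of these markers in the differences of Ctss, Ctsb and Ctsf was not tested.

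Of 25 other membrane proteins and transporters 16 lay above 0, with a median of 0.04. Tpcn1, a cation channel of endolysosomes, had 0.32 on average, but its 3 probes ran from 0.05 to 0.85, and Mfsd8 had -0.30, Lamp3 -0.22 and Laptm4a 0.22. Of 16 other pump subunits 11 lay above 0, with a median of 0.04. Atp6v1g2 had 0.22, Tcirg1, the pump subunit of osteoclasts and macrophages, 0.18, Atp6v0b 0.15 and Atp6v0d2 the value given above.

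Among the relatives of Tfeb and the mTORC1 pathway, 14 of 18 lay above 0, a count that was 14 in each of the 8 scalings, with a median of 0.10. The share of all measured genes above 0 was 52.2%, and 48.7% to 64.7% over the scalings. Rraga, a Rag GTPase that recruits mTORC1 to the lysosome, had 4967 and 2907, a difference of 0.81 at its only usable probe, with a software error of 0.20. Tfe3, a close relative of Tfeb, had 0.29, Zkscan3, described as a repressor of lysosomal genes, 0.24 and Rragd, another Rag GTPase, 0.23. Of 16 genes that sort enzymes to the lysosome 9 lay above 0, with a median of 0.02. Sort1, which encodes sortilin, had -0.21, Ap1m1 0.15, Vps35, a retromer subunit, 0.13 and Rab7 0.09. Of 8 cystatins, which inhibit cysteine cathepsins, 4 were measured. Cst3, the secreted cystatin C, had 94243 and 92333 as the mean of 2 probes and a difference of 0.07, Cstb, the intracellular stefin B, 100534 and 101832 and 0.02, Stfa2 -0.06 and Cst7 -0.12.

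**Figure D5:**
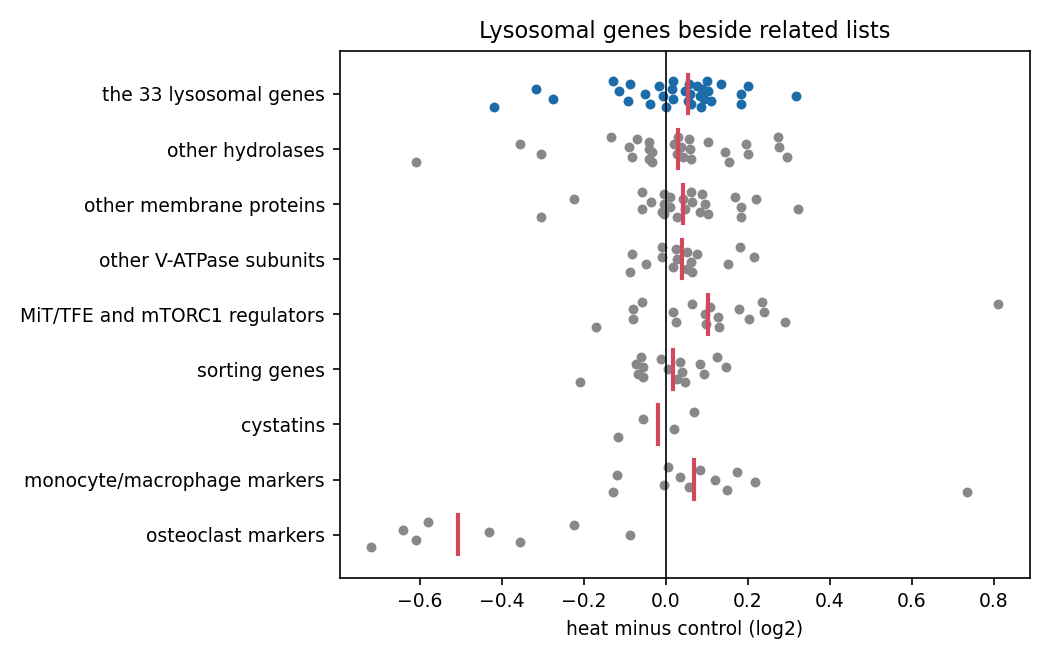
Heat minus control (log2) of each measured gene (points) and the median (red line) for the 33 lysosomal genes, for 6 lists of other lysosomal, regulatory, sorting and inhibitor genes, and for the monocyte and macrophage and the osteoclast markers. The medians of the 33 genes and of the 6 lists lie between -0.02 and 0.10 and that of the 12 monocyte and macrophage markers at 0.07, while the 8 osteoclast markers, 3 of which are also in the hydrolase and pump lists, have a median of -0.51.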

How the data were processed

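Green-channel intensity on a linear scale was read from the deposited scanner output of both arrays: the processed signal with its error, the mean signal, the local background and other columns of flags. Agilent Feature Extraction 10.7.1.1 produced them, per the file headers, which place probes on mm9. Version 9.1 is named in the submitters' processing notes. Log2 values in the authors' deposited series matrix lay within 0.0313 of quantile-normalized log2 processed signals at each probe, with a median of 5.26 in each column. Per the labels' protocols, red and white cells were lysed differentially and globin transcripts were removed before Cy3 labelling.

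Of 59305 spots outside the controls, outlier spots (168 heat, 149 control) were left out; none was saturated. Spots of a probe were averaged after log2, and a probe counted as well above background where over 0.5 of its spots carried that flag (28755 probes on both arrays). Probe differences were averaged per gene. The error of a probe's difference is the software's relative error of both signals, added in quadrature. With 1 array per group there was no test, and sizes were read against all measured genes. The members and lists were chosen with earlier results of these data known. The genes named are the 33, up to 4 of each pathway list by size of difference, and of marker lists those not well above background and up to 3 detected ones; 1 marker is not reported here. The averaging per gene and the 2-fold call were tested on simulated data, with planted differences larger than 2-fold or none. Smaller differences, background correction and scaling were not tested in this way. The alternatives were normexp (offset 50) with the 75th percentile or quantile normalization, quantile normalization alone, cyclic loess, the median of detected probes, the authors' values, mean minus background, keeping dim probes, keeping 50% of detected probes by brightness, taking only the brightest of a gene's probes and a 1.5-fold threshold. R 4.3.3, limma 3.58.1, the data.table package (1.17.8), Python 3.11.15, numpy 2.4.6 and pandas 2.3.3 were used.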

Additional observations from a re-analysis of the deposited data

How the results depend on the processing

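In each of the 10 other ways of computing the differences, no lysosomal gene with a value was 2-fold apart (all 33, or 32 with the brighter 50% of detected probes, which left out Ctsf), nor was any 1.5-fold apart with the main one. The medians of the 33 genes and of the 5 roles with several genes moved by less than the spot SD, except that of the 3 pump subunits, which was -0.0925 with dim probes kept, where a probe of Atp6v1a below background enters. The count of all genes 2-fold apart, 123, was 36 with normexp and the 75th percentile, 38 with normexp and quantile normalization, 1735 with dim probes kept, 17 among the brighter 50% of detected probes and 553 at 1.5-fold. Of 329 values of single lysosomal genes under these alternatives, 19 moved by more than the spot SD and 23 changed sign, the latter for genes whose main difference was 0.11 (Ctsa) or nearer 0; with the brightest probe per gene Cln3 had 0.16, Lamp2 0.07 and Npc1 0.05. No paired analysis was possible because each group held 1 array. Signal over background limits the dim probes: 6 of the 68 were not well above background on both arrays.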
